A study of Mus musculus with 3 samples.

Results

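Patches of tissue rich in B cell genes were found in and beside the thymus of *Trp53*-/- (KO) mice. They are described here as 27 µm squares of a spatial transcriptome (bins), each of which can hold several cells. Members were chosen by the balance of 2 gene sets in the surrounding 7 × 7 bins, counted in unique molecular identifiers (UMIs, 1 per captured transcript). A bin was a member when its window held more UMIs of the B cell receptor chains *Cd79a* and *Cd79b* with *Ms4a1*, which encodes CD20, than of 6 thymus genes. The latter were *Prss16* and *Psmb11* of cortical epithelium and *Arpp21*, *Ptcra*, *Themis* and *Cd8b1* of thymocytes. By this rule 2624 of 29469 kept bins in the KO sections were members, out of 56744 kept bins in all sections. The levels of these 9 genes, and whatever goes with them, therefore chose the members, and every difference between members and the rest is given as a description without a test.

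The series holds 3 thymus sections, 1 from each of 3 female C57BL/6 mice. By the labels the KO mice were 17 weeks old (section KO1134) and 21 weeks old (KO1308), and the *Trp53*+/+ (WT) mouse was 17 weeks old (WT1101). Each section covered 1 chip, so mouse, age, chip and section cannot be told apart, and each value stands for 1 section. Sections are called by their labels here. The sequencing summary of the study does not match these labels in every respect, ages included, so which KO mouse each section came from and the ages of the mice are uncertain. The counts summed to 31237062 UMIs in section KO1134, 21089885 in KO1308 and 41581477 in WT1101. The levels of *Trp53*, the targeted gene, were 27.2 CPM (counts scaled to 1000000 UMIs) in members and 14.5 CPM in the rest of KO1134, 34.3 and 24.6 CPM in KO1308, and 79.8 CPM in WT1101, where the rule found no member. Which part of the gene these UMIs come from relative to the deletion is not given in the sources used here.

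As background, a lymph node keeps B cells in follicles below its capsule and T cells in a deeper zone. Stromal cells of the follicle secrete the chemokine CXCL13, which draws B cells bearing CXCR5, whereas stromal cells of the T zone secrete CCL19 and CCL21, which draw naive T cells bearing CCR7. Lymphocytes enter from the blood through high endothelial venules, which make the mucin GLYCAM1, and lymph drains through sinuses lined by lymphatic endothelium and macrophages. The thymus, in contrast, consists of a cortex of developing thymocytes and a medulla of keratin-positive epithelium, and it contains few B cells, most of them in the medulla. Small lymph nodes lie in the fat around the thymus.

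Members made up 16.3% of the kept bins of section KO1134 (1959 of 12044 bins, exact binomial 95% interval 15.6 to 16.9%, 1.43 mm²). In section KO1308 they made up 3.82% (665 of 17425 bins, 3.54 to 4.11%, 0.485 mm²), which became 6.04% with bins of 20 µm. In section WT1101 0 of 27275 bins were members, which allows a share of up to 0.0135%. All intervals cover counting error only, and since neighbouring bins share their windows those on shares of bins are too narrow. The 3 B cell genes together had a level of 789 CPM in members against 85.4 CPM in the rest in KO1134, and 729 against 102 CPM in KO1308. The 6 thymus genes had 298 against 730 CPM in KO1134 and 199 against 1500 CPM in KO1308. The 86 bins just inside the threshold in KO1134 had window medians of 26 B cell gene UMIs and 24.5 thymus gene UMIs, and the 230 bins just outside had 5 and 6.5. In KO1308 the 77 bins just inside had medians of 12 and 10 UMIs, and the 584 just outside 1 and 2. Members were also deeper than the rest, with a median of 3200 against 2540 UMIs per bin in KO1134 and 1926 against 815.5 in KO1308, and the part of depth in the results was not tested beyond the thinning given in the closing section.

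**Figure D1:**
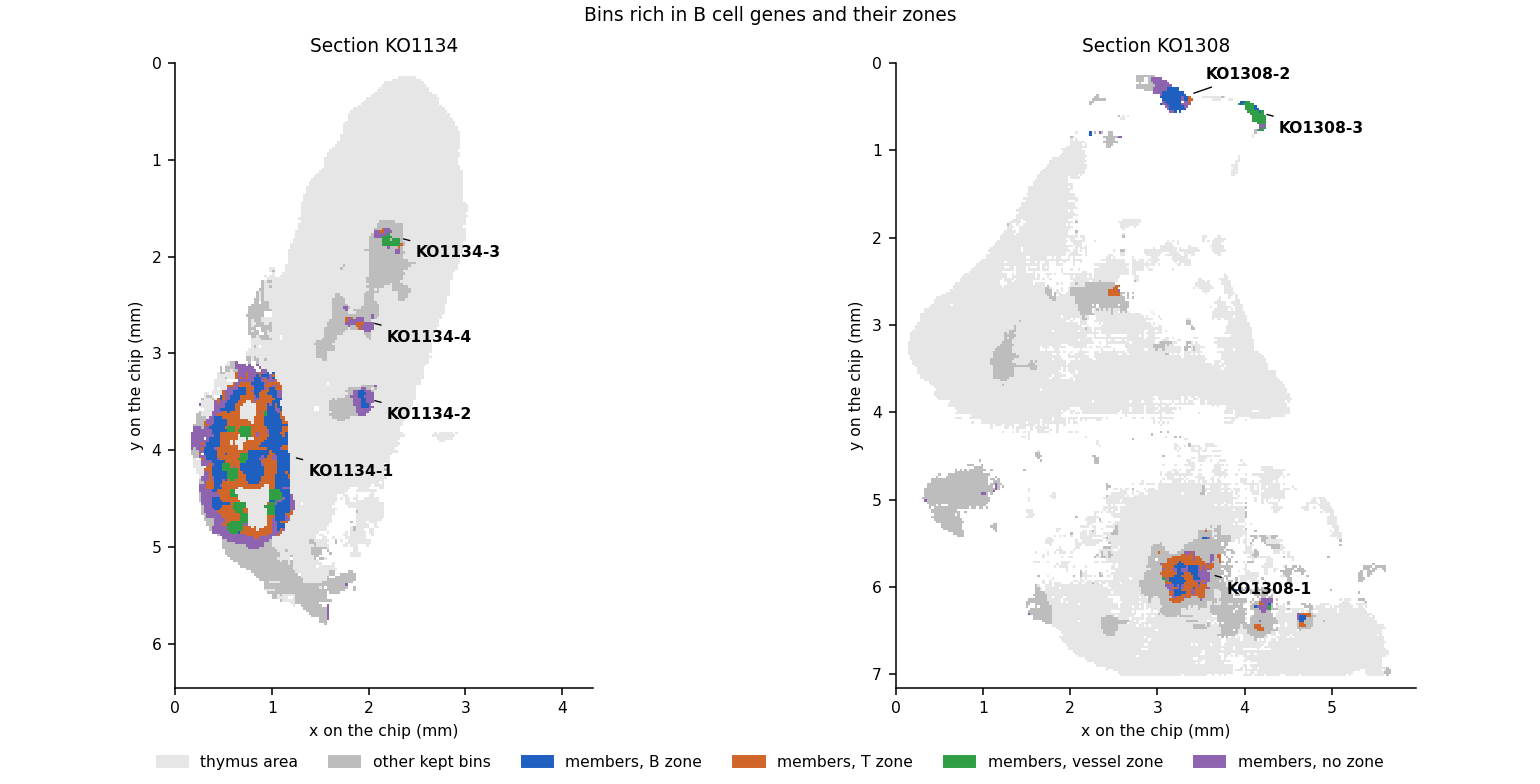
Map of both KO sections, with x and y in mm on the chip and each 27 µm bin drawn as 1 square. Light grey marks the thymus area (bins whose window reached 50% of the section's share of the thymus genes), dark grey the other kept bins, and colours the members by zone; the 7 labelled areas hold 1945 members in KO1134 and 557 in KO1308.

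The name of a lymph-node-like zone beside the thymus was borne out by the genes of 1 of the areas below and not, or in part, by those of the others. Members joined into 7 connected areas of more than 30 bins, 4 in KO1134 and 3 in KO1308, with 14 and 108 further bins in smaller groups. Area KO1134-1 held 1784 bins, 91.1% of the members of its section, and was an oval of 1080 by 1944 µm at the edge of the tissue. Of the positions within 81 µm of it, 52.2% were thymus area, 21.3% other tissue and 26.5% had no kept bin. Areas KO1134-2, KO1134-3 and KO1134-4 held 70, 50 and 41 bins and lay inside the organ, with a kept bin at every position around them. Area KO1308-1 held 347 bins, also inside the organ, where 89.1% of the positions around it were tissue poor in thymus genes. Areas KO1308-2 and KO1308-3 held 144 and 66 bins, and 91.2% and 97.3% of the positions around them had no kept bin. In KO1308 17425 of 31188 bins with UMIs were kept. Whether tissue in dropped bins joined these 2 areas to the organ was not tested.

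Genes of lymph node sinuses were present in 2 of these 7 areas. *Marco*, a scavenger receptor of sinus and marginal zone macrophages, had 335 UMIs (59.4 CPM) in KO1134-1 and 42 UMIs (186 CPM) in KO1308-2, and 0 UMIs in each of the other areas. The thymus areas of KO1134 and KO1308 had 0.845 and 0.558 CPM of it. With *Cd209b* and *Siglec1*, lectins of the same macrophages, the summed level was 84.1 CPM in KO1134-1 and 226 CPM in KO1308-2, whereas no other area had more than 1 UMI of the 3 genes. *Lyve1*, a hyaluronan receptor of lymphatic endothelium and some macrophages, had 1115 UMIs (198 CPM) in KO1134-1, 10 UMIs (44.2 CPM) in KO1308-2, 4 UMIs in KO1308-1 and 0 in the other areas. *Prox1*, the transcription factor that specifies lymphatic endothelium, had 72 UMIs (12.8 CPM) in KO1134-1, 1 UMI in KO1308-1 and 0 elsewhere. A count of 0 allows up to 17.1, 21.3 and 33.0 CPM in the small areas KO1134-2, KO1134-3 and KO1134-4, up to 13.3 CPM in KO1308-2 and up to 40.0 CPM in KO1308-3, so that for *Prox1* the depth in these areas was too low to show the level of KO1134-1.

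Genes of the thymic medulla showed the other order. Keratins *Krt5*, *Krt14* and *Krt17* with *Aire*, the regulator of tissue antigens in medullary epithelium, summed to 642, 723 and 1133 CPM in KO1134-2, KO1134-3 and KO1134-4 and to 508 CPM in KO1308-1. They summed to 23.8 CPM in KO1134-1, 22.1 CPM in KO1308-2 and 13.3 CPM in KO1308-3. The thymus areas had 259 CPM (KO1134) and 516 CPM (KO1308), and the other tissue 594 and 623 CPM. *Aire* alone had 8, 9 and 7 UMIs in KO1134-2, KO1134-3 and KO1134-4 (45.5, 63.8 and 77.0 CPM), 32 UMIs in KO1308-1 (36.4 CPM) and 2.48 CPM in KO1134-1. By these genes KO1134-1 carried what the name says, and KO1308-1 with the 3 small areas of KO1134 were patches among keratin-positive tissue. The 17 B cell genes outside the rule summed to 3612 CPM in KO1308-1 against 2307 CPM in its thymus area. In KO1134-2 they summed to 2280 CPM against 1706 CPM. KO1134-3 and KO1134-4 had 1071 and 1276 CPM, below that thymus area and above the 964 CPM of the other tissue. They also held 0 bins of the B zone defined below. By this sum these 2 areas were not rich in B cell genes against the thymus area. The sum, however, depends on *Ighm*, an antibody gene. *Ighm* gave 69.4% of it in the thymus area, and 36.4% and 25.0% in KO1134-3 and KO1134-4. The sum therefore does not show whether the other genes of the list were lower there. The 3 B cell genes of the rule, which chose the members, had 277 and 242 CPM in these areas against 83.6 CPM. KO1308-3 was low in both the sinus and the medullary genes. KO1308-2 had the macrophage genes but few UMIs of T zone genes. The 7 genes of T zone chemokines and stroma summed to 70.8 CPM there against 357 CPM in the thymus area and 1018 CPM in KO1134-1, with 2 UMIs of *Ccl21a* and 4 of *Ccr7*. These 7 genes did not set KO1134-1 apart. They had 1222, 1716 and 1694 CPM in KO1134-2, KO1134-3 and KO1134-4, 1113 CPM in KO1308-1 and 1027 CPM in KO1308-3. The other tissue had 1189 CPM (KO1134) and 768 CPM (KO1308). In KO1308-2 *Glycam1* had 4 UMIs, whereas 10 genes of blood endothelium summed to 858 CPM against 251 CPM in the thymus area, and 11 of high endothelium to 186 against 183 CPM. The same 11 genes, which do not include *Glycam1*, summed to 72.2 CPM in KO1134-1 against 149 CPM in its thymus area, and to 627 CPM in KO1308-3. In KO1308-2 the 8 plasma cell genes summed to 2274 CPM against 1175 CPM in the thymus area. All areas but KO1134-1 are therefore called here by their position and leading genes and not as lymph nodes.

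Fat genes separated the areas along the same line. The summed level of 6 adipocyte genes, of which *Fabp4* gave 77.6 to 100% in each area, was 1112 CPM in KO1134-1, 6555 CPM in KO1308-2 and 2613 CPM in KO1308-3. It was 165, 234, 55.0 and 72.8 CPM in KO1134-2, KO1134-3, KO1134-4 and KO1308-1. The thymus areas had 329 CPM (KO1134) and 345 CPM (KO1308), and the other tissue 4676 and 7129 CPM, so every area was below the other tissue of its section. Within KO1134-1 the fat genes lay at the rim, as given below.

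**Figure D2:**
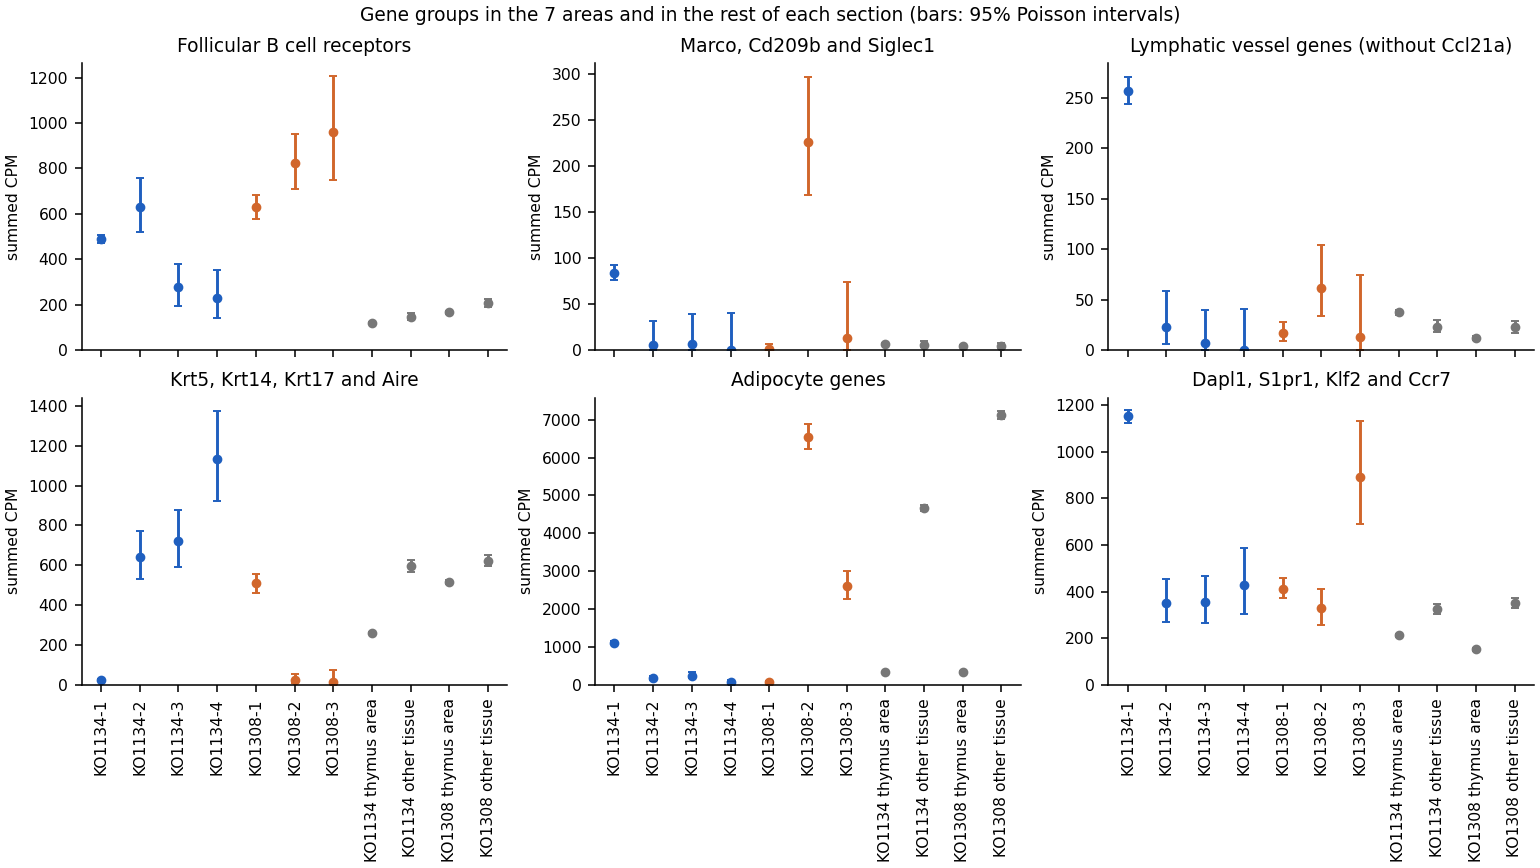
Summed CPM of 6 gene groups (y axes, from 0) in the 7 areas (blue KO1134, orange KO1308) and in the thymus area and other tissue of each section (grey), with exact Poisson 95% intervals. *Marco* and its companions stand above the grey points in KO1134-1 and KO1308-2, where the keratins and *Aire* sit at 23.8 and 22.1 CPM, and the follicular B cell receptors are above the thymus areas in all 7 areas.

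B cell receptors of follicles were above the thymus area in all 7 areas. The summed level of *Cr2*, *Fcer2a*, *Cxcr5*, *Tnfrsf13c*, *Tnfrsf13b*, *Cd40*, *Cd55* and *Cd38* was 488, 631, 277 and 231 CPM in KO1134-1 to KO1134-4 against 120 CPM in the thymus area. In KO1308-1 to KO1308-3 it was 629, 823 and 960 CPM against 166 CPM. The other tissue had 148 CPM (KO1134) and 207 CPM (KO1308), and the interval of KO1134-4 (143 to 353 CPM) reached the former. Genes of naive T cells (*Dapl1*, *S1pr1*, *Klf2* and *Ccr7*) reached 1154 CPM in KO1134-1 and 893 CPM in KO1308-3, and lay between 327 and 429 CPM in the other areas. The thymus areas had 211 CPM (KO1134) and 152 CPM (KO1308) of them and the other tissue 325 and 351 CPM, so the 5 other areas were near the other tissue of their sections.

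Each area also had leading genes of its own, taken as the highest ratios of its level to the rest of the section among genes with at least 20 UMIs in the area and 3 in the rest. In KO1134-1 these included *Cxcr2*, a chemokine receptor known from neutrophils, at 25.9 against 0.199 CPM (146 and 5 UMIs), *Marco*, *Il22ra2*, the soluble antagonist of interleukin 22, and *Lyve1* at a ratio of 28.0. The granulocyte genes *S100a8* and *S100a9* had 21 and 15 UMIs in all members of KO1134, against 146 UMIs of *Cxcr2*. In KO1134-2 *Cr2* led at a ratio of 34.4, followed by *Gp2* at 15.8. *Gp2*, a surface glycoprotein known from M cells, led KO1134-4 at 58.8, where *Reg3g*, an antibacterial lectin, had 9.05 and the airway enzyme gene *Cyp2f2* 36.1. In KO1134-3 *Glycam1* led at 24.4. In KO1308-1 *Cxcl13* led at 46.1, with *Cr2* at 25.0 and *Pou2af1*, a B cell co-activator, at 14.3. In KO1308-2 *Cd5l*, a secreted macrophage protein, had 36 UMIs against 5 in the rest, and *Cxcl13* a ratio of 224. In KO1308-3 *Glycam1* had 3533 against 12.5 CPM, a ratio of 282. These genes were the highest of each area by choice, so their ratios show its character and not how stable it is.

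Over all members, 13342 genes had at least 100 UMIs in members plus rest of each KO section. Of these, 157 were at least 2-fold higher in members in both sections (1.18% of the genes tested), 3 of them the B cell genes of the rule, and 759 were at most 0.5-fold in both (5.69%). In single sections 449 genes (3.37%) were at least 2-fold higher in KO1134 and 601 genes (4.5%) in KO1308, so that the shared genes were 35.0% and 26.1% of these. At most 0.5-fold were 1911 genes (14.3%) in KO1134 and 1487 genes (11.1%) in KO1308. The median ratio of all genes tested was 0.864 in KO1134 and 0.874 in KO1308. Of the 157 genes, 154 were also at least 2-fold higher when members were set against the thymus area in place of the rest. With bulk sums over bins, more cells of a type and more RNA per cell cannot be told apart.

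**Figure D3:**
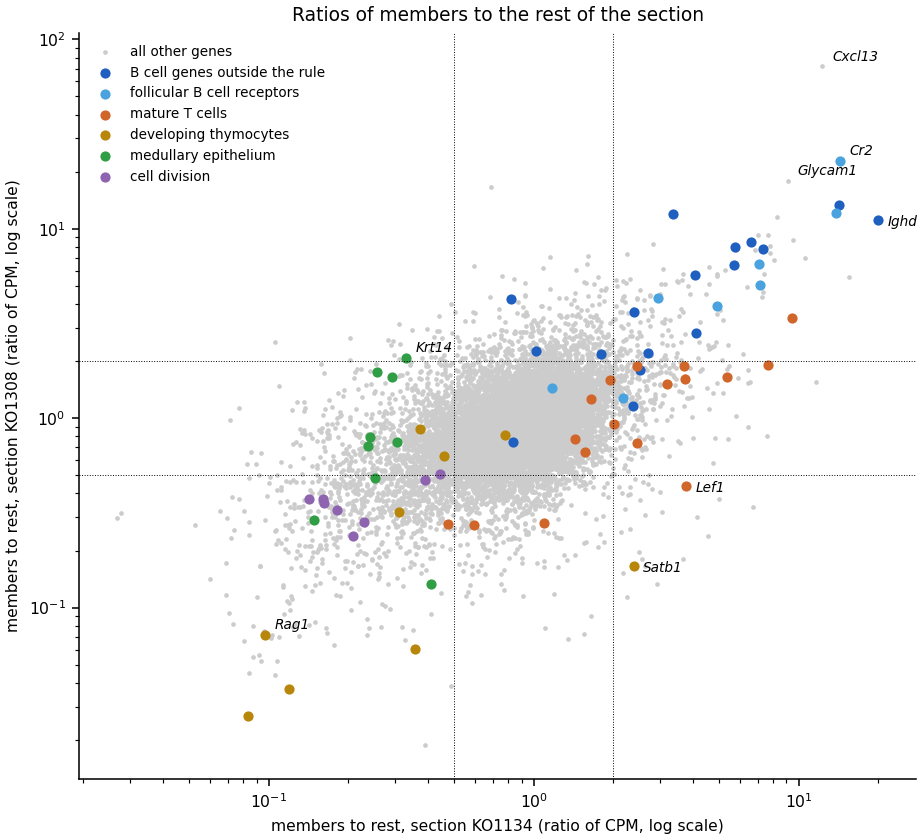
Ratio of CPM in members to the rest for each gene in section KO1134 (x, log scale) and section KO1308 (y, log scale), with 6 gene lists in colour and dotted lines at 0.5 and 2. B cell genes and follicular receptors fill the upper right, cell division genes the lower left, and mature T cell genes are spread along the x axis; 13327 genes are drawn and 15 with 0 UMIs in members or rest of a section are not.

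B cell genes outside the rule and follicular receptors were mostly above the threshold. Of 17 such B cell genes, 11 were at least 2-fold higher in both sections and none lower, with median ratios of 3.36 (KO1134) and 4.24 (KO1308). *Pax5* and *Ebf1*, transcription factors of B cell identity, had levels of 31.1 against 4.23 CPM and 29.8 against 7.30 CPM in KO1134, and 63.9 against 8.21 CPM and 34.3 against 12.1 CPM in KO1308. *Cd22*, an inhibitory co-receptor, had 76.7 against 13.3 CPM in KO1134 and 141 against 17.6 CPM in KO1308. Of the 8 follicular receptors, 6 were higher in both sections, with medians of 5.99 and 4.68. *Cxcr5*, the receptor for CXCL13, had 39.7 against 8.09 CPM and 53.8 against 13.7 CPM, and *Tnfrsf13c*, the BAFF receptor, 50.2 against 7.10 CPM and 87.3 against 13.4 CPM. Outside the rule genes, B cell genes thus stood above both the background share of 1.18% and the median of all genes, as follows in part from how the members were chosen.

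Genes tested outside the rule were ranked by the lower of their ratios in the 2 sections. The 10 highest were *Cr2*, *Fcmr*, *Cxcl13*, *Fcer2a*, *Ighd*, *Glycam1*, *4930526L06Rik*, *Vpreb3*, *Gm8369* and *Fcrl1*. *Cr2*, the complement receptor of mature B cells and follicular dendritic cells, had 49.7 CPM in members and 3.47 CPM in the rest of KO1134 (302 and 87 UMIs, ratio 14.3, exact conditional interval 11.3 to 18.4). In KO1308 it had 161 and 7.11 CPM (ratio 22.7, 18.1 to 28.6), and in WT1101 3.03 CPM. *Cxcl13* had 23.1 against 1.87 CPM in KO1134 (ratio 12.3, 8.78 to 17.5) and 394 against 5.48 CPM in KO1308 (ratio 71.9, 57.6 to 90.6). WT1101 had 22 UMIs of it (0.541 CPM). The level of *Cxcl13* in members was thus higher in KO1308 than in KO1134, beyond the counting error. *Ighd*, the constant gene of the IgD receptor of naive B cells, went the other way, with 210 CPM in members of KO1134 and 147 CPM in those of KO1308 (ratios to the rest 20.0 and 11.1). This order rested on the largest areas and turned when either was left out. Without KO1134-1 the members of KO1134 had 41.3 CPM of *Ighd*, and without KO1308-1 those of KO1308 had 253 CPM. *Glycam1* had 417 against 45.9 CPM (ratio 9.09) in KO1134 and 225 against 12.5 CPM (ratio 17.9) in KO1308, and 8 UMIs in all of WT1101. Of its 1150 UMIs in the rest of KO1134, 750 lay in bins enclosed by area KO1134-1 that were not members, described below. The ratio in KO1134 thus sets this patch partly against itself. Without area KO1308-3, which held 265 of its 288 UMIs in KO1308 members, the ratio of *Glycam1* was 1.52 (23 UMIs), below the threshold. Without KO1134-1 that of *Gm8369* in KO1134 was 1.72, and the other 8 genes were at least 2-fold higher when each of the 7 areas was left out in turn. Their ratios moved, however. Without KO1134-1 those in KO1134 were 3.92 for *Ighd*, 4.58 for *Fcmr* and 2.13 for *Vpreb3*. The last rests on 2 UMIs, too few to show a call. In KO1308 that of *Cxcl13* was 39.4 without KO1308-2 and 128 without KO1308-1. *Fcmr*, the Fc receptor for IgM, had ratios of 14.1 and 13.4, and *Fcer2a*, the low-affinity IgE receptor of follicular B cells, 13.9 and 12.2. On GRCm38, *Cr2* lies on chromosome 1 (195136811 to 195176716, minus strand), *Cxcl13* on chromosome 5 (95956951 to 95961068, plus strand), *Ighd* on chromosome 12 (113406604 to 113416324, minus strand) and *Glycam1* on chromosome 15 (103562759 to 103565081, minus strand).

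Octamer sites are a known feature of B cell promoters, where the co-activator encoded by *Pou2af1* acts, so the promoters of the leading genes were searched for them. The letters ATGCAAAT, read on both strands (ATTTGCAT on the other), were in 1 of 11 promoters of 9 of the 10 leading genes. They were in 570 of 32851 mouse promoters of the same 300 bases (1.74%). The match was in *Vpreb3*, a relative of the surrogate light chain, which had 17.8 against 2.15 CPM in KO1134 and 49.9 against 4.31 CPM in KO1308. Its promoter is shown because it is the one leading promoter with the match, chosen after the search. The sequence is that of RefSeq on GRCm38.p6, chr10:75948050-75948349, plus strand, from 250 bases before to 50 after the transcript start, with the octamer in capitals, 37 bases before the start site.
Vpreb3: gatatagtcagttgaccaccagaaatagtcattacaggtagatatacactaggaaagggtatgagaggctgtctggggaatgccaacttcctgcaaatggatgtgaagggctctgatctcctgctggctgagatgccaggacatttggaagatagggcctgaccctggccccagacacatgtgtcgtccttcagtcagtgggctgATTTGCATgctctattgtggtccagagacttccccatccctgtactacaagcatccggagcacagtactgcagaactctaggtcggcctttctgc
The match describes the letters of this window only.

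Follicle stroma genes were higher in part. *Cxcl13*, *Mfge8* and *Clu*, secreted products of follicular dendritic cells among other sources, were higher in both sections among 9 genes tested. *Mfge8* had 275 against 97.1 CPM in KO1134 and 727 against 87.7 CPM in KO1308, and *Clu* 382 against 65.7 CPM and 874 against 113 CPM. Of 9 genes of lymphotoxin and BAFF signalling, *Lta*, a ligand needed for lymphoid organ formation, was higher in both (ratios 3.05 and 3.23). *Ltb*, its partner, had a ratio of 3.80 in KO1134 and 1.28 in KO1308. Of 9 MHC class II genes *H2-Ob* was higher in both (6.39 and 4.91), where 1.18% of all genes were. In KO1134 1 of these genes was higher and in KO1308 8, against 3.37% and 4.5% of all genes. Germinal centre genes were not above the threshold in both sections for any of the 6 genes tested, out of 11 listed. In area KO1308-1, however, *Mybl1*, a transcription factor of germinal centre B cells and of germ cells, had 27 UMIs (30.7 CPM) against 6.56 CPM in the thymus area, and *Gcsam*, a germinal centre signalling protein, had 37.5 against 3.63 CPM. In KO1134-1, which held 5636221 UMIs against 879515 in KO1308-1, *Mybl1* had 8 UMIs.

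Mature T cell genes set the sections apart. Of 17 such genes, 10 were at least 2-fold higher in members of KO1134 and 1 in those of KO1308, with median ratios of 2.45 and 1.26. Of all genes tested, 3.37% were higher in KO1134 and 4.5% in KO1308. *S1pr1*, the receptor for exit into blood and lymph, was the 1 gene higher in both, at 329 against 34.8 CPM in KO1134 and 92.8 against 27.4 CPM in KO1308. *Dapl1*, a transcript of naive T cells, had 311 against 40.5 CPM in KO1134 (ratio 7.70) and 45.2 against 23.7 CPM in KO1308 (ratio 1.91). *Lef1*, a transcription factor shared by thymocytes and naive T cells, had ratios of 3.77 and 0.436. *Trbc1*, a constant gene of the T cell receptor, was lower in members of both sections (0.475 and 0.276). The rest of each section is mostly thymus, so these ratios compare T cells of the patches with thymocytes. Relative to the thymus areas of their sections, the genes highest in KO1134 against KO1308 members included *Nsg2* (4.28 against 0.259), *Satb1*, a chromatin organiser of thymocytes (2.27 against 0.144), and *Lef1*. Those lowest included *Retnla*, a resistin-like secreted protein (0.820 against 20.8), *Cst7*, a protease inhibitor of immune cells (0.569 against 7.70), and the pericyte receptor *Pdgfrb* (0.199 against 1.84). Of the 440 UMIs of *Retnla* in KO1308 members, 302 lay in KO1308-2 and 135 in KO1308-3. For each of these genes the thymus areas themselves differed. *Satb1*, *Nsg2* and *Lef1* had 213, 34.6 and 58.9 CPM in that of KO1134 and 1303, 374 and 210 CPM in that of KO1308. *Retnla*, *Cst7* and *Pdgfrb* had 68.7, 115 and 100.7 CPM in that of KO1134 and 16.5, 11.2 and 17.8 CPM in that of KO1308. In members of KO1134 and KO1308 *Nsg2* had 148 and 96.7 CPM, *Satb1* 484 and 187 CPM, *Lef1* 210 and 81.9 CPM, *Cst7* 65.4 and 86.5 CPM and *Pdgfrb* 20.1 and 32.7 CPM. For *Nsg2*, *Satb1*, *Lef1*, *Cst7* and *Pdgfrb* the levels thus differed by more between the thymus areas than between the members.

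Among homing genes, *Ccr7*, *Cxcr5* and *S1pr1* were higher in both sections and the other 5 of 8 were not. For this and the other lists here, 1.18% of all genes tested were higher in both sections. *Ccr7* had 226 against 53.7 CPM in KO1134 and 112 against 44.3 CPM in KO1308. Its ligand gene *Ccl21a* had ratios of 1.60 and 2.05 and *Ccl19* 1.86 and 4.75. *Grem1*, a BMP antagonist made by some reticular cells of the T zone, had 135 UMIs in members of KO1134 (22.2 against 1.36 CPM) and 0 UMIs in those of KO1308. In KO1308 members 3 UMIs come to 2.34 CPM, which is 9.51-fold below the level in KO1134 members. This fold leaves out the counting error of the 135 UMIs and is no strict lower limit. Vessel genes were mixed, with *Kdr*, a VEGF receptor, higher among 10 genes of blood endothelium (3.37 and 2.42) and 0 of 6 genes of high endothelium, a list without *Glycam1*, higher in both. Of these 6 genes 0 were higher in KO1134 and 4 in KO1308 (3.37% and 4.5% of all genes were), with median ratios of 0.724 and 2.69. *Rgs5*, a pericyte gene, had ratios of 2.06 and 4.96, and *Notch3*, of mural cells, 0.286 and 0.478. Of 10 fibroblast genes 0 were higher in KO1134 and 7 in KO1308, where 3.37% and 4.5% of all genes were higher. Of 9 macrophage genes 5 were lower in KO1134 and 0 in KO1308, where 14.3% and 11.1% of all genes were lower. The macrophage genes had median ratios of 0.487 and 1.47. *Timd4*, a receptor for dying cells, was the 1 macrophage gene higher in both (3.84 and 4.98).

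The remaining lists had few genes past the threshold in both sections. Of all genes tested, 1.18% were higher and 5.69% lower in both, so 0 genes called in a list this short is near these shares. Of 10 genes of helper, regulatory and killer T cells *Eomes*, a transcription factor of killer cells, was higher (2.79 and 3.47) and *Il2ra*, an interleukin 2 receptor chain, lower (0.222 and 0.485). *Ccl5*, a chemokine of the same cells, had ratios of 0.568 in KO1134 and 2.41 in KO1308. Of 5 genes of the T zone and 10 of dendritic cells *Ccr7* was the 1 higher gene in each, and of 7 plasma cell genes *Mzb1*. In KO1134 alone 2 dendritic cell genes and 2 plasma cell genes were lower (14.3% of all genes were), with median ratios of 0.627 and 0.663 over these lists, against 1.72 and 0.982 in KO1308. None of 3 lymphatic genes, 5 adipocyte genes and 2 granulocyte and mast cell genes tested were called in both. Muscle and red cell genes were too rare to be tested, with summed levels in members of 6.26 and 51.9 CPM in KO1134 and 4.68 and 15.6 CPM in KO1308.

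Genes of the thymus and of cell division were on the other side. Of 9 genes of developing thymocytes 5 were lower in both sections, among them *Rag1* of the antigen receptor recombinase (3.62 against 37.4 CPM in KO1134, 21.8 against 305 CPM in KO1308). Cortical epithelium had 5 of 7 genes lower, with *Ccl25*, a chemokine for thymocyte progenitors, at ratios of 0.119 and 0.105. Of 9 medullary genes 9 were lower in KO1134 and 3 in KO1308, against 14.3% and 11.1% of all genes. In KO1308 *Krt14* was 2.08-fold higher, with 139 of its 145 UMIs in KO1308-1. Of 8 cell division genes 7 were lower in both, with *Mki67*, a marker of cycling cells, at 54.0 against 337 CPM and 117 against 314 CPM. The counts of genes lower in both read against a background of 5.69%, and the lists together hold few of the 759 genes. By the higher of the ratios in the KO sections, the 10 lowest genes outside the rule were *Elfn2*, *Tcrg-C2*, *Aqp11*, *Acan*, *Gm40323*, *Myl10*, *Gfra1*, *Gm40841*, *Rag1* and *Endou*. *Aqp11* had ratios of 0.0836 and 0.0267. *Cdkn2a*, an inhibitor of cell division upstream of p53, had 13.3 against 73.4 CPM in KO1134 and 12.5 against 53.1 CPM in KO1308, while all of WT1101 had 0.935 CPM. It was the 1 gene of 7 in the p53 list called in both sections. *Trp53* itself had ratios of 1.87 (1.55 to 2.26) and 1.39 (0.996 to 1.90).

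Antibody genes were not uniformly higher in members. Together the 12 immunoglobulin constant genes had a level of 5975 CPM in members and 10688 CPM in the rest of KO1134, and 12282 and 13663 CPM in KO1308. *Ighd*, *Iglc2* and *Iglc3* were higher in both sections, and *Igha* and *Ighg2c* were lower in both (*Igha* ratios 0.107 and 0.415, *Ighg2c* 0.465 and 0.445). These are 3 and 2 of 11 genes tested, where 1.18% of all genes were higher and 5.69% lower in both. *Jchain*, the joining chain of secreted IgA and IgM, had ratios of 0.488 and 0.712, while *Mzb1*, a chaperone of marginal zone B cells and plasma cells, had 2.51 and 3.23. Among heavy chain UMIs *Igha* took 9.75% in KO1134-1 (9.31 to 10.2%) and 10.7% in KO1308-3 (7.91 to 14.1%). In the areas inside the organ it took 40.0, 63.2 and 68.4% (KO1134-2 to KO1134-4) and 30.5% (KO1308-1), and 35.3% in KO1308-2, against 51.9 and 54.1% in the rest of the KO sections. *Ighd* took 7.34% in KO1134-1 and 11.2% in KO1308-3, and 0.554 to 2.12% in the other 5 areas, against 0.141 and 0.126% in the rest. *Ighm* ranged from 8.03% in KO1134-4 to 74.6% in KO1308-3. The light chain gene *Iglc1* took 16.9% of light chain UMIs in KO1134-1 and 2.49% in the rest of that section, while members and rest of KO1308 had 5.35 and 5.07%. The constant genes of a family are alike in sequence, so reads may have been split between *Iglc1*, *Iglc2* and *Iglc3* or between the *Ighg* genes.

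**Figure D4:**
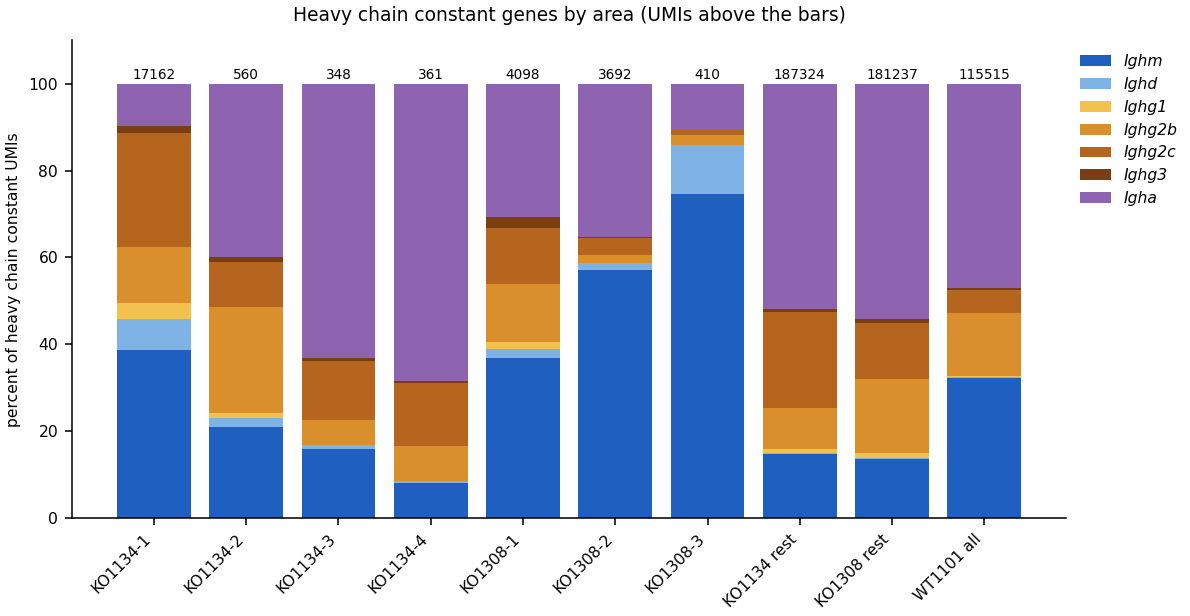
Percent of heavy chain constant UMIs from each gene (y, stacked to 100) in the 7 areas, the rest of each KO section and all kept bins of WT1101, with the number of UMIs above each bar; *Ighe* is not drawn. *Ighm* with *Ighd* took most of KO1308-3 and little of KO1134-4, where *Igha* took 68.4%.

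Members were split into zones by which genes were richest in the 3 × 3 bins around them, relative to all members of the section. The B zone was set by the 3 B cell genes, the T zone by *Cd3d*, *Cd3e* and *Cd3g*, and the vessel zone by *Glycam1*, *Chst4* and *Fut7*. In KO1134 the B zone held 30.3% of members (593 bins), the T zone 32.9% (644 bins), the vessel zone 9.44% (185 bins) and no zone 27.4% (537 bins). In KO1308 these were 26.2% (174 bins), 36.5% (243 bins), 8.72% (58 bins) and 28.6% (190 bins). The vessel zone rested on *Glycam1*, which gave 98.6% and 97.0% of the UMIs of its 3 genes, whereas *Chst4*, a sulphotransferase of high endothelium, had 1 and 2 UMIs. In KO1308 81.8% of area KO1308-3 was vessel zone, and KO1308-1 had 2 bins of it. The bins of no zone were rich in fat genes, with *Fabp4* at 3840 CPM in KO1134 and 3477 CPM in KO1308, against 124 and 848 CPM in the B zones.

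Outside the genes that set them, zones were compared with the other members over 7773 genes. In the B zone 23 genes were at least 2-fold higher in both sections (0.296%). *Cxcl13* led, with 55.8 CPM in the B zone and 6.45 CPM in the other members of KO1134, and 915 and 169 CPM in KO1308. *Marco* had ratios of 3.32 and 30.1, and *Cr2* had 4.05 and 2.48. In KO1308 the B zone lay mainly in KO1308-2 (79 of 174 bins), which held all 42 UMIs of *Marco*, and in KO1308-1 (73 bins), which held 0. Of the 42 UMIs, 39 lay in B zone bins and 3 in other members. *Bank1*, a scaffold of B cell receptor signalling, had 2.90 and 3.52. *Haao*, an enzyme of tryptophan breakdown, and *Ccr1*, a chemokine receptor of myeloid cells, were also among the 6 highest. In the T zone 0 genes passed in both sections (0%). *Als2cl* was the closest (1.99 and 3.50), and *Sidt1* and the T cell adaptor *Skap1* had ratios between 1.78 and 1.95. *Ighg3*, an antibody gene, was among the 6 highest in the T zone too (1.82 and 5.72).

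In the vessel zone 14 genes were higher in both sections (0.18%). *Lrg1*, a secreted glycoprotein of venular endothelium, had 115 against 20.3 CPM in KO1134 and 300 against 50.3 CPM in KO1308. *Cd300lg*, a mucin-like receptor of endothelium, had ratios of 3.01 and 4.67 from 25 and 7 UMIs in the zone. The basement membrane collagen gene *Col15a1*, the junction protein gene *Esam*, the vascular antigen gene *Cd34* and the lipoprotein receptor gene *Scarb1* completed the 6 highest, at 2.56 to 3.25. In KO1308 54 of the 58 vessel zone bins lay in KO1308-3, so that zone and area cannot be told apart there.

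The T zones of the sections differed in what else they held. The KO1134 T zone had 894 CPM of *Ccl21a*, 462 CPM of *Dapl1*, 37.2 CPM of *Grem1* and 12.6 CPM of *Krt5*. The KO1308 T zone had 760 CPM of *Ccl21a*, 45.8 CPM of *Dapl1*, 0 UMIs of *Grem1* and 220 CPM of *Krt5*, with *Aire* at 36.3 against 1.40 CPM in KO1134. Of the 243 T zone bins of KO1308, 189 lay in area KO1308-1, inside the organ. *Ccl21a* is also made by medullary epithelium of the thymus, and the part of each source was not tested.

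Area KO1134-1 was layered from the outside inwards. Its bins lay up to 54 µm (343 bins), 54 to 108 µm (330), 108 to 216 µm (544) and more than 216 µm (567) from the nearest position outside. *Fabp4* was highest at the rim, at 4462, 1614, 144 and 84.0 CPM from the outermost to the innermost band. *Marco* came next, at 12.5, 109, 117 and 0 CPM, with 228 of its 335 UMIs in the third band. *Ighd* had its highest level in the same band (159, 247, 275 and 188 CPM). *Glycam1* had 4.18 and 5.56 CPM in the outer bands and 673 and 508 CPM in the inner ones, and *Ccl21a* (183, 438, 811 and 872 CPM) and *Dapl1* (125, 203, 343 and 440 CPM) were highest innermost. *Lyve1* was present in all bands (82.2, 288, 216 and 182 CPM). Bins of the T zone made up 18.1, 14.8, 33.8 and 59.1% of the bands, and B zone bins 18.4, 40.6, 49.4 and 19.4%. The median distance to the outside was 135 µm for B zone bins, 223 µm for T zone bins, 256 µm for vessel zone bins and 54 µm for bins of no zone.

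In area KO1308-1 genes of the follicle also rose inwards, whereas *Ccl21a* fell. In its 4 bands (134, 97, 105 and 11 bins) *Cr2* had 99.1, 134, 276 and 268 CPM and *Cxcl13* 88.1, 245, 365 and 625 CPM. *Mfge8* had 400, 758, 1314 and 2202 CPM. In KO1134-1 the same genes rose inwards at lower levels, *Cr2* from 19.5 to 64.7 CPM, *Cxcl13* from 1.39 to 34.7 CPM and *Mfge8* from 80.8 to 378 CPM. In KO1308-1 *Ccl21a* went from 1039 CPM at the rim to 208 CPM in the innermost band, and *Krt5* from 275 to 59.5 CPM. *Mki67* had 110, 74.3, 217 and 268 CPM, whereas in KO1134-1 it had 107 CPM at the rim and 37.6 CPM innermost. The innermost band held 33607 UMIs, so its values rest on few counts (9 UMIs of *Cr2*). B zone bins made up 0, 20.6, 49.5 and 9.09% of the bands and T zone bins 64.2, 60.8, 32.4 and 90.9%, so the zones had no single order. The median distance to the outside was 138 µm for B zone bins, near that in KO1134-1, and 60.4 µm for T zone bins. The opposite order of *Ccl21a* in the areas was larger than the counting error.

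**Figure D5:**
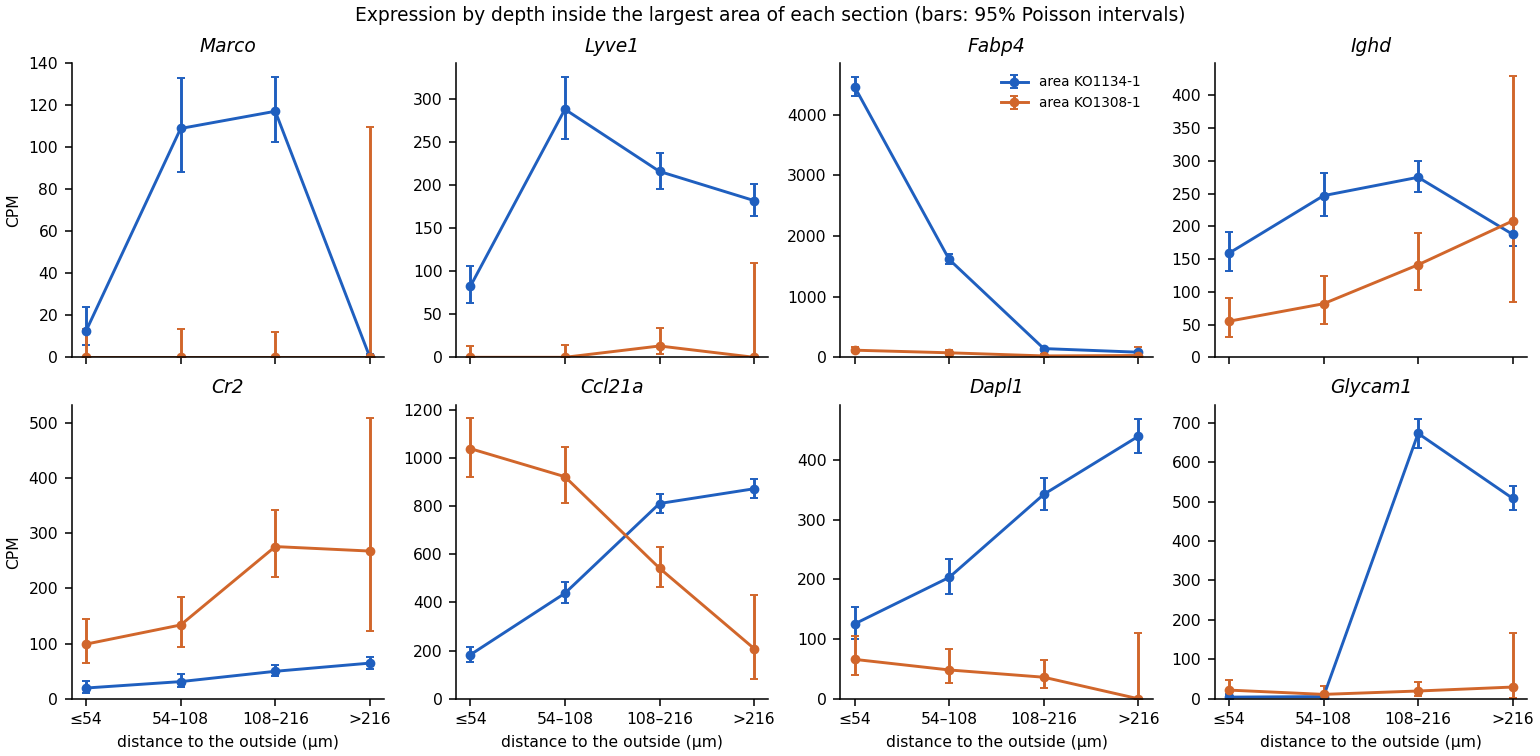
CPM of 8 genes (y, from 0) in 4 bands of distance to the outside (x, in µm) in area KO1134-1 (blue) and area KO1308-1 (orange), with exact Poisson 95% intervals. In KO1134-1 *Fabp4* is highest at the rim and *Dapl1* innermost, with *Marco* between them, whereas *Marco* has 0 UMIs in every band of KO1308-1 and *Ccl21a* runs in opposite directions in the areas.

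Area KO1134-1 enclosed 195 bins that were not members. The balance of the rule genes decided this, so the levels of these genes there describe the choice and are no separate evidence. In all ratios of members to the rest of KO1134 these 195 bins were counted in the rest. For genes high in them, such as *Glycam1*, *Dapl1* and *S1pr1*, this made the ratios smaller. By its definition the thymus area can also include some of these bins. Outside the rule, genes of cortex and developing thymocytes were low in the enclosed bins against the thymus area. *Dntt* had 2.87 against 511 CPM, *Tbata* 5.75 against 810 CPM, *Ccl25* 25.9 against 695 CPM and *Rag1* 2.87 against 42.0 CPM. *Cd8b1*, a thymus gene of the rule that peripheral killer T cells also express, had 484 CPM in the enclosed bins (434 to 539). It had 310 CPM in the T zone of the area and 31.2 CPM in the thymus area of the whole section. *Themis*, a T cell signalling protein, had 66.1, 43.8 and 58.1 CPM. *Prss16*, a protease of cortical epithelium, had 7.18 CPM against 456 CPM in the thymus area, and *Psmb11*, a proteasome subunit of the same cells, 2.87 against 166 CPM. *Arpp21* and *Ptcra*, genes of developing thymocytes, had 0 UMIs (upper limit 5.30 CPM), with 84.7 and 3.35 CPM in the thymus area. For *Ptcra* the depth was thus too low to show a difference. *Dapl1* was at 566 CPM, *S1pr1* at 470 CPM and *Glycam1* at 1078 CPM. In these bins *Cd8b1* alone had 337 UMIs, more than the 106, 77 and 8 UMIs of *Cd79a*, *Cd79b* and *Ms4a1* together, whereas *Themis* had 46. The area as drawn by the rule leaves out bins whose level of *Cd3d*, a T cell receptor chain (601 CPM), was near that of its T zone (577 CPM). *Cd3d* is also one of the genes that set the T zone.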

How the data were processed

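Thymus sections of 2 *Trp53*-/- mice and 1 *Trp53*+/+ mouse were captured on S1000 chips whose barcoded spots are smaller than a cell. The authors used BSTMatrix and the aligner STAR, and what they deposited are UMI counts of each gene at each spot with spot positions; the submitters' processing notes give the build as GRCm38. The deposited counts are whole numbers without normalisation. The permeabilisation time differed between the WT and KO sections, and the authors removed folded areas, which were kept here.

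Counts were summed in bins of 27 µm, and those with fewer than 300 genes or over 30% mitochondrial UMIs were dropped. A window missing some kept bins used those present. CPM were computed from UMIs summed over bins, with 95% intervals that were exact Poisson for CPM, conditional binomial for ratios and Clopper-Pearson for shares. A count of 0 was taken as up to 3 UMIs. With 1 section per mouse no test was made and no p-value is given; a gene was called at a ratio of at least 2 or at most 0.5 in both KO sections. Genes needed 100 UMIs in members plus rest of each KO section. The thymus area comprised non-members in whose window the thymus genes took 50% or more of the share they had in the whole section. Doublets have no meaning for bins and were not sought.

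The text names genes of 28 lists, the 10 highest and 10 lowest ratios of members to rest, the 6 highest of each zone and the 6 at either end between sections, leaving out the genes of the rule and of the zones; 1 or more genes under this rule are not reported here and were left out of the lists. The members and lists were chosen with earlier results of these data known. A minimum of 30 UMIs for zone and between-section genes, the connected areas, their leading genes, bands of depth, enclosed bins, shares of antibody genes, the octamer search and the splits of lists (*Marco* with *Cd209b* and *Siglec1*, lymphatic genes without *Ccl21a*, keratins with *Aire*, genes of naive T cells) were added after the values were seen. Gene positions are those of GENCODE on GRCm38.

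Computations were tested on simulated counts. Python 3.11.15, numpy 2.4.6, scipy 1.17.1, pandas 2.3.3 and matplotlib 3.10.9 were used. Alternatives changed bin width, windows, gene and UMI minimums, scaling, depth, patches, zone rule and sections.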

Additional observations from a re-analysis of the deposited data

How the results depend on the processing

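Of 52 alternative values, 29 moved by less than the counting interval, or stayed within 1.5 times for counts of genes, and 23 moved further. The share of members in KO1134 was 17.4% with bins of 50 µm. In KO1308, the shallower section, it was 6.04% with bins of 20 µm, 2.64% with bins of 50 µm, 4.29% with a 5 × 5 window, 3.52% with a 9 × 9 window, 3.25% at 200 genes per bin, 5.44% at 500 genes and 3.20% in patches of at least 50 bins. The 157 genes higher in both sections became 257 against the thymus area (154 shared), 83 at 300 UMIs, and 449 to 601 when either section was left out, since 1 section then decides the call. They became 171 when every bin was thinned to 300 UMIs (108 shared). Among alternatives added after seeing the data, they became 161 (138 shared) in the largest area of each section alone, and 255 (81 shared) in members outside the largest areas. The ratios of the 10 highest genes without each area were also added then, and 2 of these genes fell below 2-fold, as given above. With a 5 × 5 zone window the B zone of KO1134 held 34.7%, its T zone 27.2% and its vessel zone 13.3%, and the T zone of KO1308 held 42.1%. With single bins the T zone of KO1308 held 29.2% and the vessel zone of KO1134 6.23%. Without a minimum for a zone the B zones held 40.6% and 41.1% and the T zones 49.4% and 49.5%. The cause of these differences was not tested. No paired analysis was possible because no result comes from a test and each KO mouse gave 1 section. The small areas held 75005 to 226082 UMIs, which limits what a count of 0 shows there.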
